A study of Mus musculus with 6 samples.

Results

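Red blood cells of the mouse embryo are described here through 31 genes of haem synthesis, of the red cell membrane and of the control of the lineage, chosen by symbol without the globins. The files held 30 of these 31 symbols among 23366 genes, and all 30 passed the filter on low counts, as did 15075 genes in all. Ahsp, the chaperone of free alpha globin, was not analysed here. Polyadenylated RNA came from 6 whole embryos at E10.5, 3 in each of 2 groups, on a mixed C57BL/6, CD1 and 129 background. Knockout embryos were H3f3afl/- and H3f3bfl/-, with 1 null allele and 1 floxed allele for both genes of histone H3.3, the H3 variant that is placed into chromatin outside of DNA replication. Control embryos were H3f3afl/+ and H3f3bfl/+. Every embryo of both groups also carried Sox2-CreTg/0, a recombinase active in the epiblast from which blood cells descend, and was Trp53-/-, without the tumour suppressor p53. Controls thus carried Cre and a floxed allele of each H3.3 gene as well, and deletion of that allele in them was not measured here. Nothing in the labels ties embryos to litters, and p-values cover no more than the spread among these samples, which may be partly technical.

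At this stage most circulating blood cells are primitive erythroid cells, which arise in the yolk sac and still carry a nucleus and messenger RNA. They build haem along a chain of enzymes that starts and ends in the mitochondrion, load iron through the transferrin receptor, and anchor a spectrin network to the membrane through band 3, ankyrin and protein 4.2. GATA1, TAL1 and KLF1 are the transcription factors best known for switching these genes on, and erythropoietin keeps the cells alive through its receptor. In RNA from whole embryos, fewer erythroid cells and less RNA per cell cannot be told apart.

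Libraries held 24952853 to 30461689 counts in genes. H3f3a had 338, 366 and 342 CPM (counts scaled to library size with TMM factors) in controls 1, 2 and 3 and 70, 64.4 and 68.5 CPM in knockouts 1, 2 and 3, and so was low in each library labelled knockout. H3f3b had 676, 727 and 669 CPM against 469, 503 and 392 CPM. The embryonic globins Hbb-y, Hbb-bh1 and Hba-x, which define primitive erythroid cells, were abundant in every library, and all globin genes together summed to 7430, 9110 and 9420 CPM in controls against 8710, 5360 and 7850 CPM in knockouts. None of the 3 passed the test by edgeR (adjusted p from 0.397 to 0.943). The adult globins Hba-a1 and Hba-a2 were at 0 and Hbb-b1 and Hbb-b2 had at most 1 count per library. Alignments that were not unique, 18.2% to 22.6% of each library, were not counted in genes. These counts thus do not show whether the adult genes were silent, and the summed globin level covers only reads that were counted. Of 11 macrophage markers, 8 of the 9 tested were lower in the knockouts by edgeR, against 0.955% of all tested genes. The summed level of the 11 was 108 to 127 CPM in controls and 42.1 to 54.6 CPM in knockouts. In the knockouts Vcam1, a gene of many tissues, made up 46.5 ± 6.03 CPM of it (SD, n = 3). C1qb and C1qc, which define macrophages, were at 0 in every knockout. Cd163, too low to be tested, went the other way, with 5, 2 and 3 reads in controls 1, 2 and 3 against 10, 6 and 12 in knockouts 1, 2 and 3.

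No erythroid gene passed the test between the groups, yet the knockout embryos were not alike. By edgeR's quasi-likelihood test with Benjamini-Hochberg adjustment over all genes, 0 of 30 erythroid genes had an adjusted p under 0.05, against 1.51% of all tested genes (0.551% higher and 0.955% lower). At an unadjusted p under 0.05 there were 3 of 30, against 19.2% of all tested genes. Groups of 3 did not overlap for the same number, 3 of 30, against 24.1% of all genes. The median log2 fold change was 0.15, with 21 of 30 above 0, while the median over all tested genes was 0.00. The 3 genes were Cpox, Urod and Icam4, described below with their groups, and DESeq2 called 1 of the 30, Cpox (higher, adjusted p = 0.0206), against 4.63% of all genes in either direction, 2.66% higher and 1.98% lower.

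Embryo by embryo, knockouts 1 and 3 read high and knockout 2 read low. Relative to the mean of the controls on the scale of log2(CPM + 0.5), the median over the 30 genes reached 0.37 for knockout 1 and 0.34 for knockout 3, against -0.32 for knockout 2. Knockout 1 lay above every control for 22 of 30 genes, against 33.3% of all tested genes, and knockout 3 for 20 of 30, against 33.6%. Knockout 2 lay below every control for 23 of 30 genes, against 30.1%, and was the lowest of all 6 embryos for 22 of 30, against 19.4%. For 13 of 30 genes knockout 2 was the lowest embryo while knockouts 1 and 3 both lay above every control, which was so for 4.18% of all tested genes. Knockout 1 lay below every control for 2 of 30, against 32.8%, knockout 2 above for 1, against 29.8%, and knockout 3 below for 3, against 33.4%. Controls were spread in a graded way, with medians of -0.19, 0.00 and 0.19 in controls 1, 2 and 3, and every one of the 30 genes was lower in control 1 than in control 3, against 49.8% of all genes. These counts describe orders seen in the data and have no test.

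**Figure D1:**
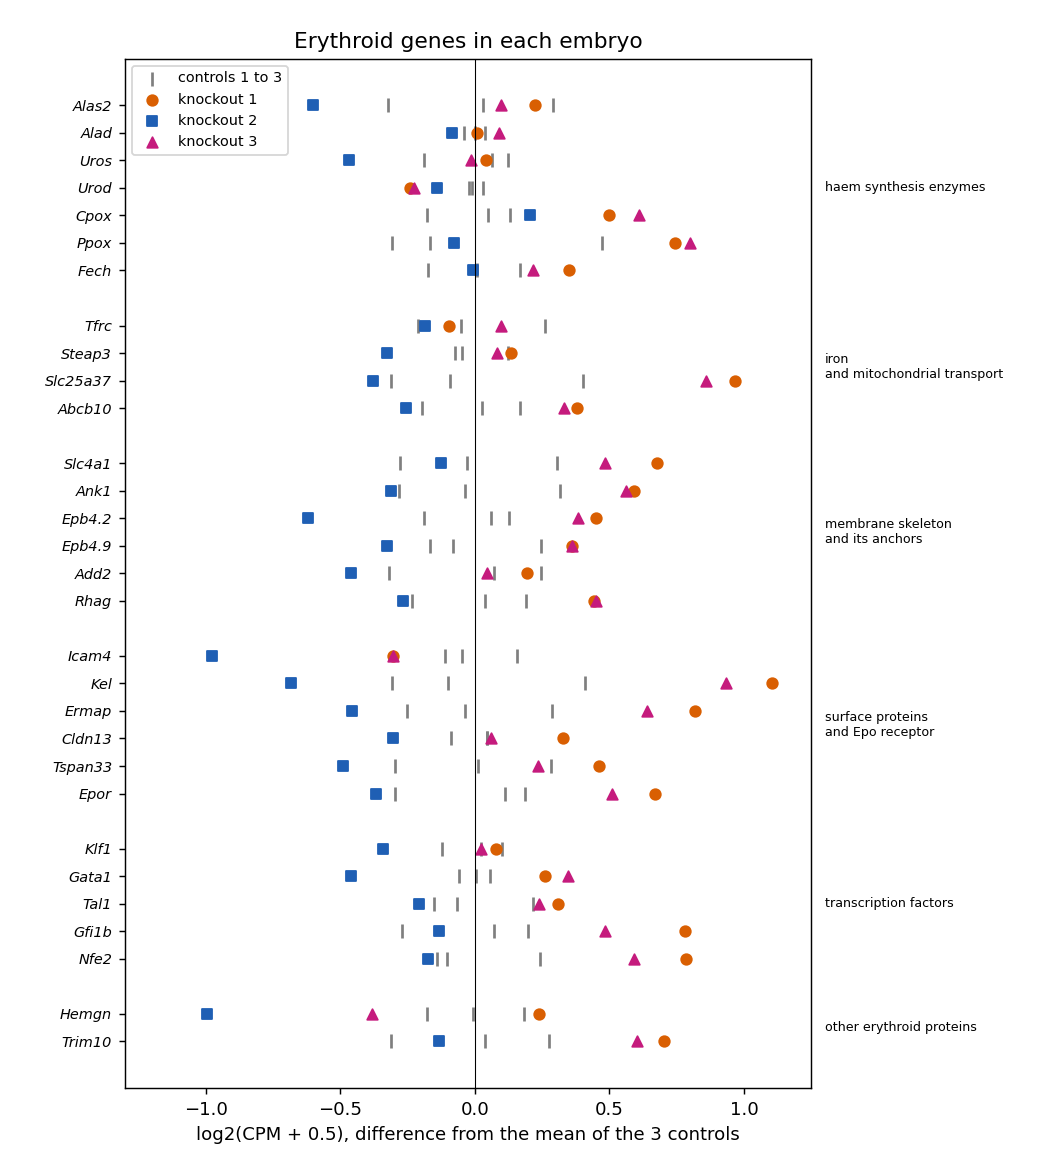
Each of the 30 erythroid genes (rows, by role) in each embryo, as the difference in log2(CPM + 0.5) from the mean of the 3 controls (x axis). Grey ticks are controls, and coloured marks are knockouts. Knockout 2 (squares) lies left of all control ticks for 23 genes, while knockout 1 (circles) lies right of them for 22 genes and knockout 3 (triangles) for 20.

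Other properties of the libraries ran alongside. Alignments outside genes made up 9.79%, 10.7% and 13.1% in controls 1, 2 and 3 and 18.3%, 10.6% and 18.0% in knockouts 1, 2 and 3, so the 2 libraries with the largest share were also those with the highest erythroid medians. Rn45s, the ribosomal RNA precursor, took 8.05%, 4.70% and 3.98% of gene counts in controls 1, 2 and 3 and 3.73%, 4.24% and 2.06% in knockouts 1, 2 and 3, and was thus lowest in knockouts 3 and 1. The part of either share in the erythroid levels was not tested. From the lowest share outside genes upward, the erythroid median was -0.19 in control 1, -0.32 in knockout 2 and 0.00 in control 2. It was then 0.19 in control 3, 0.34 in knockout 3 and 0.37 in knockout 1. The summed globin level was lowest in knockout 2, at 5360 CPM, but it was not highest in knockouts 1 and 3, which lay within the control range at 8710 and 7850 CPM.

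**Figure D2:**
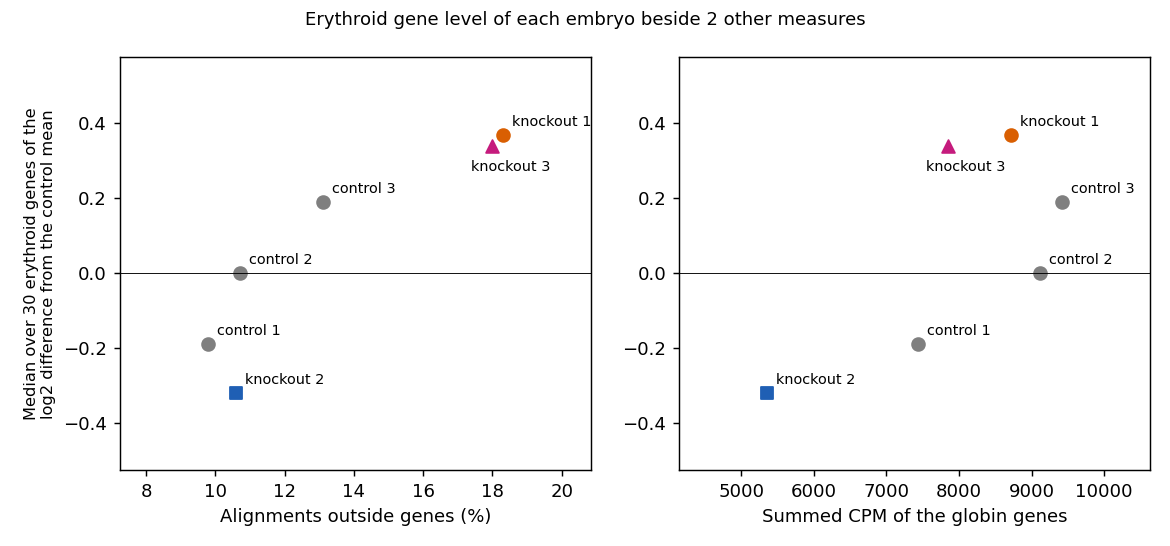
Median over the 30 erythroid genes of the log2 difference from the control mean (y axis) in each of the 6 embryos, against the percentage of alignments outside genes (left) and the summed CPM of the globin genes (right). Knockouts 1 and 3 stand at 18.3% and 18.0% with medians of 0.37 and 0.34, and knockout 2 stands at 10.6% and 5360 CPM with a median of -0.32.

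Leaving out knockout 2, which read low where knockouts 1 and 3 read high, changed the count. Against the 3 controls, knockouts 1 and 3 then had 11 of 30 erythroid genes higher and 0 lower at an edgeR adjusted p under 0.05, against 7.55% and 3.28% of all tested genes. The 11 were Cpox, Slc25a37, Abcb10, Slc4a1, Ank1, Epb4.2, Kel, Ermap, Epor, Nfe2 and Trim10, with log2 fold changes from 0.35 for Abcb10 to 1.01 for Kel, and the median over the 30 was 0.34. With any other single library left out, the count was 0. Knockout 2 is singled out here because it read low for these same genes, so higher calls in the other 2 knockouts were favoured in advance. The calls and adjusted p without knockout 2, here and for single genes below, describe the other 2 knockouts. They are not a result for the group. With knockouts 1 and 3 left out instead, a setting chosen after seeing the data, knockout 2 alone had 1 of 30 genes lower, Hemgn, and 0 higher, against 2.78% of all genes in either direction, 1.68% higher and 1.1% lower.

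**Figure D3:**
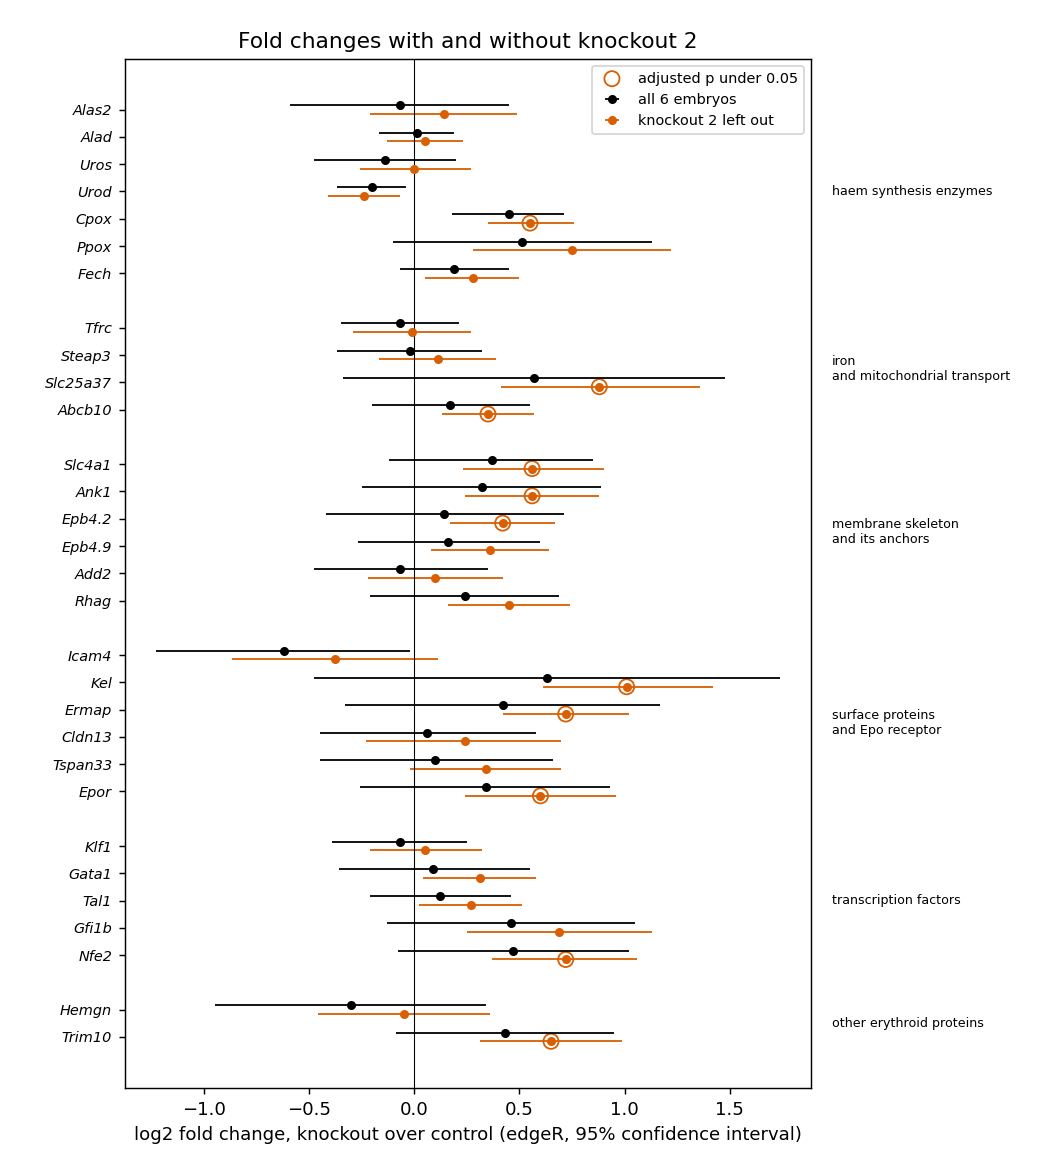
Log2 fold change of knockout over control with its 95% confidence interval from edgeR (x axis) for the 30 erythroid genes (rows), with all 6 embryos (black) and with knockout 2 left out (orange). Rings mark the 11 genes with an adjusted p under 0.05, all without knockout 2, while no black point has a ring.

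Levels could be compared between genes only per kilobase of exon, using lengths from the GENCODE annotation of GRCm38. In the controls Tfrc was highest at 59.0 ± 10 RPKM (CPM per kilobase of exon, SD, n = 3), followed by Slc4a1 at 52.1 ± 10.7, Alas2 at 45.3 ± 9.53 and Urod at 40.6 ± 0.809 RPKM. Each of these 4 differed from its neighbour in that order by less than their spread. Tfrc and most haem enzymes are also used by other dividing cells, so their level in whole embryos is not that of red cells alone. Regulators were lower, with Tal1 at 8.21 ± 1.14, Klf1 at 7.73 ± 0.595, Gata1 at 4.75 ± 0.199 and Gfi1b at 1.96 ± 0.362 RPKM. Steap3, at 1.69 ± 0.129 RPKM, was the lowest of the 30. For comparison Hbb-y, the globin with the most counts, had 6780 ± 855 RPKM in the controls.

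Promoters of the genes were searched since many of these genes shared their order of embryos. RefSeq promoter windows on GRCm38.p6, from 250 bases before to 50 after the start, were found for 23 of the 30 genes. AGATAA, a form of the site that GATA factors bind, stood on either strand in 10 of these 23 genes (43.5%), against 12.7% of 27025 genes with a window. Other forms of this site were not searched or marked. CACCC, the core bound by KLF1 and related factors, stood in 18 of 23 (78.3%), against 59.8%. TGACTCA, bound by NFE2 and AP-1 factors, stood in 2 of 23 (8.7%), against 5.9%. A match describes letters and is not a site.

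Only Kel and Trim10 held all 3 motifs. Both had knockouts 1 and 3 above every control, but so had 19 of the 30 genes, these included, against 25.4% of all tested genes. Ppox, whose window held none of the motifs, was among them. Any tie between motifs and the order of embryos was not tested. They are shown with Alas2, the enzyme gene specific to red cells, and Icam4, which like Urod was below every control in all 3 knockouts. Each run gives the 250 bases before the start, 5′ to 3′ in the direction of the gene, and capitals mark the motifs on either strand. The windows lie on GRCm38.p6 at chr6:41704326-41704575 on the minus strand for Kel, chr17:36869324-36869573 on the plus strand for Trim10, chrX:150547167-150547416 on the plus strand for Alas2 and chr9:21029182-21029431 on the plus strand for Icam4.
Kel: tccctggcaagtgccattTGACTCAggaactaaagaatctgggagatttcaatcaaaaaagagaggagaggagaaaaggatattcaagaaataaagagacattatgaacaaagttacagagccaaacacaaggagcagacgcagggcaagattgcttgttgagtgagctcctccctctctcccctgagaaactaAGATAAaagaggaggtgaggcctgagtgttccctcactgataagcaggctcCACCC
Trim10: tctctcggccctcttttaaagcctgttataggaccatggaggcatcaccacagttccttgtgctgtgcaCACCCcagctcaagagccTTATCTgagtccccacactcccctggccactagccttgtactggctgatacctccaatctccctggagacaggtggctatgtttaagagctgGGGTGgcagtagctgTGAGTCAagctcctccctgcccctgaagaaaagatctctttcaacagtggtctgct
Alas2: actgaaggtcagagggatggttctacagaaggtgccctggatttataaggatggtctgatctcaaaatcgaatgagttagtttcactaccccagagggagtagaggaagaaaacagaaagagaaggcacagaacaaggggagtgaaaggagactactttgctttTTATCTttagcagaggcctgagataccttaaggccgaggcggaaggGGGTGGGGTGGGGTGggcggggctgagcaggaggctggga
Icam4: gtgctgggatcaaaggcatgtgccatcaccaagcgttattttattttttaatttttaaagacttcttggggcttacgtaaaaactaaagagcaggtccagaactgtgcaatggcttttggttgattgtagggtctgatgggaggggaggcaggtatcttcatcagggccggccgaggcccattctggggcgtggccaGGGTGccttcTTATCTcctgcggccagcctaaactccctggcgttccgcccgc
In Alas2 and Icam4 the AGATAA and CACCC motifs stood on the strand opposite to the gene, as TTATCT and GGGTG, and in Kel on the strand of the gene.

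The 7 enzymes of haem synthesis split in direction, and none passed the test. Their median log2 fold change was 0.01, with 4 of 7 above 0. Cpox, the coproporphyrinogen oxidase that works between the mitochondrial membranes, had 76.2, 89.2 and 94.4 CPM in controls against 122, 99.4 and 132 CPM in knockouts. All 3 knockouts lay above all controls, knockout 2 by little. Its log2 fold change was 0.45 ± 0.12 (SE), 95% interval 0.18 to 0.71, with an edgeR adjusted p of 0.106. It was called with the replicate number as a block (edgeR adjusted p = 0.044, with 4.15% of all genes called, 2.26% higher and 1.88% lower) and without knockout 2 (0.00629), at 0.55.

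Urod, the uroporphyrinogen decarboxylase of the cytosol, was below every control in all 3 knockouts. It had 59.5, 61.8 and 60 CPM in controls against 51.1, 54.8 and 51.6 CPM in knockouts. The groups did not overlap, and the spread within each was small. Its log2 fold change was -0.20 ± 0.07 (SE), edgeR adjusted p = 0.178. Knockout 2 was here the knockout nearest the controls.

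Alas2, the erythroid aminolevulinate synthase that sets the rate of haem production in red cells, did not separate the groups. It had 72.5, 92.7 and 111 CPM in controls against 106, 59.6 and 97.2 CPM in knockouts, so knockout 2 was below every control and the other 2 were within their range. The log2 fold change was -0.07 ± 0.23 (SE), interval -0.59 to 0.45. Fech, the ferrochelatase that inserts iron in the last step, had 60.9, 69.2 and 77.3 CPM against 87.8, 68.5 and 80.0 CPM. For this gene knockouts 1 and 3 exceeded every control and knockout 2 was in their middle, with a log2 fold change of 0.19 and an edgeR adjusted p of 0.39. Ppox, the protoporphyrinogen oxidase, had 12.3, 13.6 and 21.5 CPM against 26.0, 14.5 and 27.1 CPM, and a log2 fold change of 0.51 with an interval from -0.10 to 1.13. Alad and Uros, enzymes of early cytosolic steps, had log2 fold changes of 0.01 and -0.14. Alad was the steadiest of the 7 enzymes, at 39.6 to 44.8 CPM in all 6 embryos.

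Genes for iron delivery and mitochondrial transport differed in how much they followed the embryo. Slc25a37, or mitoferrin 1, which carries iron into mitochondria of erythroid cells, had 109, 127 and 179 CPM in controls against 265, 104 and 246 CPM in knockouts. Knockouts 1 and 3 were far above the controls and knockout 2 below them. The log2 fold change was 0.57 ± 0.37 (SE), with an interval of -0.34 to 1.48 and an edgeR adjusted p of 0.441, and without knockout 2 it was 0.88 (adjusted p = 0.0402). Abcb10, a transporter of the inner mitochondrial membrane that stabilises mitoferrin 1, had 60.4, 70.6 and 77.9 CPM against 90.3, 58.0 and 87.3 CPM. Its order of embryos was that of Slc25a37 at a smaller size, with a log2 fold change of 0.17 and an edgeR adjusted p of 0.581. Tfrc, the transferrin receptor, had 262, 364 and 293 CPM against 284, 267 and 325 CPM, and every knockout lay within the range of the controls. Steap3, the ferrireductase that prepares iron for export from endosomes, was at -0.02.

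Genes of the membrane skeleton and its anchors mostly shared 1 order of embryos. Of 6, 5 had a log2 fold change above 0, with a median of 0.20, and 0 passed the test. For 5 of 6, knockouts 1 and 3 both exceeded every control, against 25.4% of all tested genes. Knockout 2 was the lowest of all embryos for 5 of 6, against 19.4%, and 4 of 6 showed both, against 4.18%. Slc4a1, the anion exchanger band 3, had 193, 229 and 289 CPM in controls against 374, 214 and 327 CPM in knockouts. Its log2 fold change was 0.37 ± 0.21 (SE), interval -0.12 to 0.85, with an edgeR adjusted p of 0.373. Ank1, the ankyrin that ties band 3 to spectrin, had 29.3, 34.8 and 44.6 CPM against 54.0, 28.7 and 53 CPM. Knockouts 1 and 3 were nearly equal and above the controls, with a log2 fold change of 0.32 and an edgeR adjusted p of 0.493. Both genes were called without knockout 2, at 0.56 each (adjusted p = 0.0428 for Slc4a1 and 0.0357 for Ank1), with the limit given above.

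Protein 4.2 and the Rh-associated glycoprotein followed them. Epb4.2, which encodes protein 4.2, had 17.6, 21.0 and 22 CPM in controls against 27.7, 12.9 and 26.4 CPM in knockouts. Rhag, an ammonia and gas channel of the Rh complex, had 12.1, 14.7 and 16.4 CPM against 19.6, 11.8 and 19.7 CPM. Epb4.9, the actin bundling protein dematin, had 15.6, 16.6 and 20.9 CPM against 22.7, 13.9 and 22.7 CPM. In each of these 3, knockout 2 was lowest and the other 2 knockouts highest, and log2 fold changes ran from 0.14 to 0.24. Add2, a beta adducin that neurons also make, was at -0.07, and its knockouts 1 and 3 lay within the control range.

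Surface proteins and the erythropoietin receptor held both the largest and the lowest fold changes. Icam4, an adhesion protein that binds integrins and helps to hold erythroblasts to macrophages, held 65, 69 and 79 reads in control libraries, whereas knockout libraries held 49, 27 and 55. In CPM this was 2.23, 2.35 and 2.79 against 1.89, 0.997 and 1.89, so every knockout lay below every control. The log2 fold change was -0.62 ± 0.27 (SE), interval -1.23 to -0.02, with an edgeR adjusted p of 0.249. On the scale of log2(CPM + 0.5), Icam4 stood at -0.68, -0.66 and -0.64 from the median erythroid gene in knockouts 1, 2 and 3. At such low levels the added 0.5 shrinks differences, most of all in knockout 2 at 0.997 CPM. The likeness of these 3 values is therefore not a result. All of its exons are overlapped by Gm47079 on the other strand in the GENCODE annotation. The strand setting of the counting is not given in the sources used here, so reads of the 2 genes may not be separable.

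Kel, the Kell blood group endopeptidase, varied most. It had 11.0, 12.8 and 18.4 CPM in controls against 30.1, 8.38 and 26.7 CPM in knockouts. The log2 fold change of 0.63 ± 0.46 (SE) had an interval of -0.48 to 1.74 and an edgeR adjusted p of 0.484, and without knockout 2 it was 1.01 (adjusted p = 0.01). Ermap, an erythroid membrane protein that carries the Scianna blood group, ran in parallel with 26.4, 30.7 and 38.5 CPM against 55.9, 22.8 and 49.3 CPM. Cldn13, a claudin found in rodent erythroid cells, and Tspan33, a tetraspanin of erythroid progenitors, were at 0.06 and 0.10.

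Epor, the receptor for erythropoietin, had 6.31, 8.54 and 9.01 CPM in controls against 12.8, 5.98 and 11.4 CPM in knockouts. Knockouts 1 and 3 were above the controls and knockout 2 just below them, and the log2 fold change was 0.34 ± 0.26 (SE), edgeR adjusted p = 0.497. Epo, the gene of its ligand, held 8, 16 and 11 reads in control libraries, whereas knockout libraries held 10, 55 and 30. Ligand and receptor thus ranked the knockouts in opposite orders, with knockout 2 highest for Epo and lowest for Epor. The log2 fold change of Epo was 1.51 ± 0.56 (SE), edgeR adjusted p = 0.193, and it is named after its values were seen.

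Of the 5 transcription factors, 0 passed the test, and 4 had knockouts 1 and 3 above every control, against 25.4% of all tested genes. Klf1, the activator of adult-type and membrane genes, had 12, 10.8 and 12.7 CPM in controls against 12.5, 9.23 and 12 CPM in knockouts, at -0.07 ± 0.14 (SE), interval -0.39 to 0.25. Gata1, the lineage's central zinc finger factor, had 8.64, 9.05 and 9.40 CPM against 10.9, 6.43 and 11.6 CPM. The controls of Gata1 were close together and the knockouts stood on either side of them, with a log2 fold change of 0.09. Tal1, its basic helix-loop-helix partner, had 33.4, 31.4 and 40.7 CPM against 43.4, 30.2 and 41.3 CPM, at 0.12.

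Nfe2, a subunit of a factor that acts on globin loci, had 6.24, 6.43 and 8.30 CPM in controls against 12.3, 6.09 and 10.7 CPM in knockouts. Gfi1b, a repressor needed for red cell and platelet formation, had 2.85, 3.74 and 4.13 CPM against 6.43, 3.18 and 5.15 CPM. Both had knockouts 1 and 3 above every control, and knockout 2 was below the controls for Nfe2 and among them for Gfi1b. Log2 fold changes were 0.47 ± 0.24 (SE) for Nfe2 and 0.46 ± 0.26 for Gfi1b, with edgeR adjusted p of 0.316 and 0.358. Without knockout 2, Nfe2 was called at 0.72 (adjusted p = 0.0175) and Gfi1b, at 0.69, was not (0.0502).

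Trim10 and Hemgn went different ways. Trim10, a ring finger protein of terminal erythroid differentiation, had 10.9, 14 and 16.6 CPM in controls against 22.5, 12.4 and 21.0 CPM in knockouts, with a log2 fold change of 0.43 ± 0.23 (SE), edgeR adjusted p = 0.333. Hemgn, or hemogen, a nuclear protein that is a target of GATA1, had 41.0, 46.3 and 52.9 CPM against 55.0, 23.1 and 35.6 CPM. Hemgn was above every control in knockout 1 and below every control in knockouts 2 and 3, a pattern that no other of the 30 showed. Its log2 fold change was -0.30 ± 0.28 (SE), interval -0.95 to 0.34, with an edgeR adjusted p of 0.57.

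**Figure D4:**
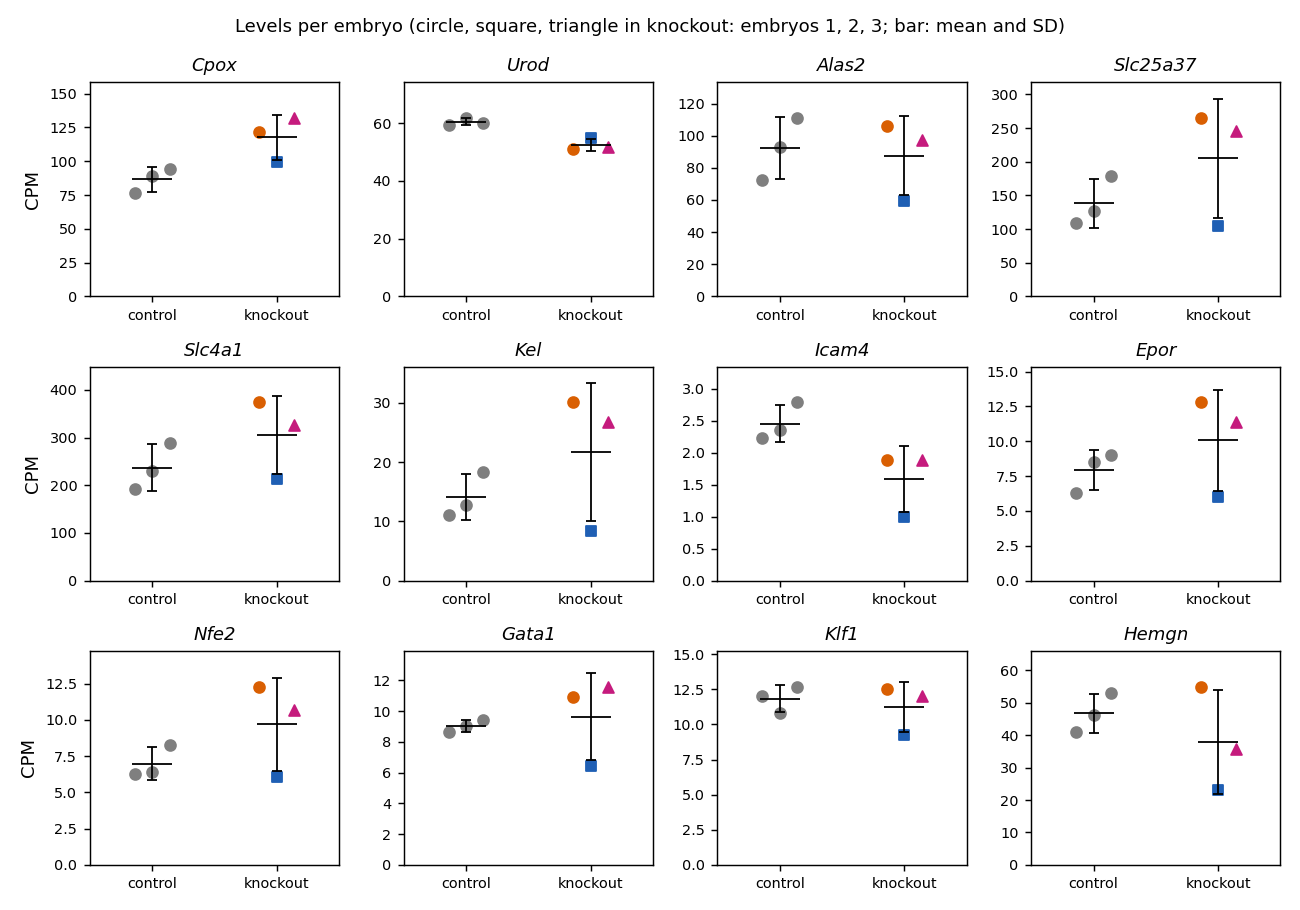
CPM of 12 erythroid genes in each embryo (points), with the mean and SD of each group of 3 (bars); every y axis starts at 0. Urod and Icam4 are lower and Cpox higher in all 3 knockouts, whereas Kel, Slc25a37, Epor and Nfe2 put knockout 2 (squares) below every control and knockouts 1 and 3 above.

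Other genes of the same pathways were read from lists. Among 27 tested genes of haem and iron handling outside the 30, 1 was lower by edgeR and 0 were higher, against 0.955% and 0.551% of all tested genes. This was Slc40a1, the iron exporter ferroportin, which macrophages, yolk sac and red cells make. Mean CPM was 14.9 ± 1.11 in controls against 10.1 ± 0.545 in knockouts (SD, n = 3). On the log2 scale this was -0.55 ± 0.11 (SE), edgeR adjusted p = 0.0494. Macrophage markers were lower in the same embryos, as given above, and their part in Slc40a1 was not tested. The call was lost without any single library other than knockout 2 (edgeR adjusted p from 0.0843 to 0.27) and with RLE scaling, upper quartile scaling, library totals, limma-voom or a stricter filter (0.0502 to 0.0998). Alas1, the form of aminolevulinate synthase used outside red cells, had 5.83 ± 0.502 RPKM in the controls beside 45.3 ± 9.53 RPKM of Alas2, and a log2 fold change of -0.03.

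Of 25 tested red cell membrane genes outside the 30, 1 was higher by edgeR and 0 were lower, against 0.551% and 0.955% of all tested genes. Piezo1, a mechanically gated cation channel that endothelium also makes, rose from 50 ± 2.35 to 67.6 ± 2.59 CPM (SD, n = 3), with a log2 fold change of 0.44 ± 0.08 (SE), edgeR adjusted p = 0.0275. The call did not survive leaving out any 1 control, or knockout 3 (edgeR adjusted p from 0.0583 to 0.19). Summed endothelial markers were also higher in the knockouts, at 379, 492 and 413 CPM against 363, 355 and 345 CPM. Of these 8 markers, 6 had log2 fold changes above 0, and Cldn5 and Emcn were at -0.20 and -0.14. Only 1, Kdr, was called higher by edgeR, against 0.551% of all tested genes. The list median against the control mean was 0.03, 0.50 and 0.14 in knockouts 1, 2 and 3. The part of endothelial cells in Piezo1 was not tested. Mpp1, a membrane palmitoylated protein of the skeleton, was next at -0.37 with an edgeR adjusted p of 0.081. Sptb, a spectrin chain named after its values were seen, had 71.7, 75.0 and 85.6 CPM against 124, 66.5 and 119 CPM. It thus put knockout 2 lowest and the other 2 knockouts highest, as ankyrin did.

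None of 25 tested genes of blood regulation outside the 30 was called by edgeR. Their list holds transcription regulators along with signalling genes such as Epo, Kit and Jak2. At an unadjusted edgeR p under 0.05 there were 7, of which 4 were higher and 3 lower, against 19.2% of all tested genes. The median log2 fold change was 0.02, with 13 of 25 above 0. DESeq2 called 2 lower, against 1.98% of all tested genes. The smallest p belonged to Lmo2, the bridging factor of the GATA1 and TAL1 complex, whose mean CPM was 22.8 ± 0.276 in controls against 17.1 ± 1.78 in knockouts (SD, n = 3). Its log2 fold change was -0.41 ± 0.10 (SE), edgeR adjusted p = 0.0923. Myb, the factor of definitive blood progenitors, was next, at 14.1 ± 1.16 against 9.55 ± 1.87 CPM, a log2 fold change of -0.56 ± 0.16 and an edgeR adjusted p of 0.119. DESeq2 called these 2 at adjusted p of 0.0274 and 0.0342. Both had every knockout below every control, unlike Tal1 and Gata1.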

How the data were processed

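The authors deposited, for each of 6 embryos, whole-number counts per gene symbol, with no normalization. HTSeq, TopHat2, Bowtie2 and Trimmomatic, with no versions, and the mm9 build are listed in the submitters' processing notes. The sources used here do not give the annotation or strand setting. KAPA stranded libraries were made from polyadenylated RNA, per the labels' protocols. Tables of repeat names were not used.

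Rows that name no gene stayed out of library sizes and tests. Alignments outside genes were 9.79% to 18.3% and not unique ones 18.2% to 22.6% of each library. Any 2 libraries differed far beyond sampling noise (chi-square per degree of freedom 12.4 to 101). The test was edgeR's (version 4.0.16, R 4.3.3) robust quasi-likelihood F test with TMM scaling and filterByExpr (minimum count 10, minimum total 15) on all 6 libraries, modelling group alone, and Benjamini-Hochberg adjustment over 15075 genes. The biological coefficient of variation was 12.2%. An adjusted p under 0.05 was called. Each SE is the log2 fold change divided by the root of its F value. The test was checked on simulated data. DESeq2 1.42.0 and limma 3.58.1 (voom) were alternatives, with other scalings, filters, a replicate block and libraries left out.

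Genes and lists were chosen with earlier results of these data known. Full statistics went to genes with an unadjusted p under 0.05 and the 2 smallest p of each role, values per embryo to these and to Alas2, Fech, Slc4a1, Klf1, Gata1 and Epor, and in the other lists statistics to called genes and the 2 smallest p. Any further gene given with values, such as Ppox, Ermap, Epo, Alas1, Sptb and Pf4, was added after values were seen. A gene that the rule would name in the haem and iron list is not reported here. Exonic lengths and overlaps came from GENCODE M21 and promoters from RefSeq, both on GRCm38, matched by symbol.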

Additional observations from a re-analysis of the deposited data

How the results depend on the processing

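The count of 0 erythroid genes became 1 with DESeq2 and 1 with the replicate block (Cpox), and ran from 0 to 11 with single libraries left out, 11 only without knockout 2. With every other scaling or filter run, or limma-voom, or at an adjusted p under 0.1, it was 0. Deviations of same-numbered embryos correlated at -0.10, 0.23 and 0.31, and not every embryo correlated best with its own number. With so few embryos per group, these correlations cannot show whether the replicate numbers pair the samples, for example by litter or batch. The block raised calls among all genes from 227 to 637 and among blood regulators from 0 to 1. All-gene calls were 769 with DESeq2, 109 at a mean of at least 1 CPM, 528 at an adjusted p under 0.1, and 60 to 1663 with single libraries left out. Blood regulators gave 2 calls with DESeq2 and 1 at 0.1. Red cell membrane genes gave 2 calls with DESeq2, 2 at 0.1 and 0 to 8 with single libraries left out. The haem and iron list gave 0 calls with RLE, upper quartile, library totals, limma-voom or a mean of at least 1 CPM, and 0 to 1 with single libraries left out. The causes were not tested.

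Signs near 0 were unstable. Alad was at 0.00 with upper quartile scaling and Steap3 at 0.04 with library totals. With single libraries left out, ranges that crossed or reached 0 were -0.21 to 0.10 for Add2, -0.03 to 0.05 for Alad, -0.22 to 0.14 for Alas2, -0.12 to 0.24 for Cldn13, -0.03 to 0.42 for Epb4.2, -0.06 to 0.31 for Gata1, -0.15 to 0.05 for Klf1, -0.10 to 0.11 for Steap3, -0.17 to 0.07 for Tfrc, -0.10 to 0.34 for Tspan33 and -0.23 to 0.00 for Uros. The median of all 30 ran from 0.05 to 0.34. A fit chosen after seeing the data left out knockouts 1 and 3 together, so that knockout 2 alone, assumed to vary like the controls, faced them. It gave 430 calls among all genes, 0 in the haem and iron list, 2 and 3 in the membrane and regulator lists, and 1 erythroid gene lower, Hemgn, at -1.01 (edgeR adjusted p = 0.00207). Medians were -0.34 over the 30 genes, -0.30 for iron and mitochondrial transport, -0.33 for the membrane skeleton, -0.50 for surface proteins, -0.22 for transcription factors and -0.58 for Hemgn and Trim10. Genes above 0 in the main fit and below 0 in this one were Alad at -0.08, Ppox -0.12, Fech -0.01, Slc25a37 -0.41, Abcb10 -0.26, Slc4a1 -0.14, Ank1 -0.33, Epb4.2 -0.64, Epb4.9 -0.34, Rhag -0.28, Kel -0.74, Ermap -0.48, Cldn13 -0.37, Tspan33 -0.53, Epor -0.41, Gata1 -0.49, Tal1 -0.22, Gfi1b -0.17, Nfe2 -0.19 and Trim10 -0.15. Of the 30, Cpox alone stayed above 0. On the scale of log2(CPM + 0.5), the haem enzymes had a median of -0.08 in knockout 2 against the control mean.

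Counts of promoter motifs before the start alone were 8, 17 and 2 genes for the GATA, KLF and NFE2 motifs. Among the 30 genes, Icam4 and Cldn13 were limited most by depth, at under 100 counts in every library.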

Other observations

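Megakaryocyte genes, of the lineage that shares GATA1, TAL1, NFE2 and GFI1B with red cells, did not follow the erythroid order of embryos. Of 11 tested, 10 had log2 fold changes below 0 and 5 of these an unadjusted p under 0.05 (19.2% of all tested genes passed that threshold in either direction), with a median over the list of -0.73. Pf4, a platelet chemokine that fetal macrophages can also make, held 255, 189 and 213 reads in control libraries, whereas knockout libraries held 63, 148 and 117, with an edgeR adjusted p of 0.12. Vwf, which endothelium makes too, was the only called gene of that list, at 0.89 with an edgeR adjusted p of 0.0175, while 0.551% of all tested genes were called higher. Their list median against the control mean was -0.64, -0.33 and -0.32 in knockouts 1, 2 and 3, so knockout 1, which was high for erythroid genes, was the lowest here. Embryos of the group were therefore ordered differently by these lists, a difference that was not tested.

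Ttr, the transthyretin gene of yolk sac endoderm and liver bud, held 364, 243 and 277 reads in control libraries, whereas knockout libraries held 106, 84 and 67, a log2 fold change of -1.69 with an edgeR adjusted p of 0.00886. The other 7 tested genes of the yolk sac endoderm and liver bud list were not called, while 0.955% of all tested genes were called lower. The summed level of the whole list, Ttr included, ran from 315 CPM in control 1 to 106 CPM in knockout 3, again in an order unlike that of the erythroid genes. Afp made up most of this sum, at 208 CPM in control 1 and 65.2 CPM in knockout 3.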
